A study of Mus musculus with 72 samples.

Results

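The comparison described here set 6 ventral hippocampus (VH) libraries of home cage mice labelled 6NJ against 6 labelled 6J. These 12 libraries were chosen by their names alone, out of 72 in the series. Both substrains are sublines of the C57BL/6 inbred mouse. The 6NJ group held male mice with the genotype label C57BL_6NJ taken from the home cage, and the 6J group male mice labelled C57BL_6J taken the same way. The series also held dorsal hippocampus (DH) libraries, and groups sampled 30 min after a cue or after shock with the cue (fear conditioning). The labels give no age and do not tie each library to its own mouse, so the p-values speak of library-to-library spread, which may be technical. Polyadenylated RNA was sequenced as single reads of 75 bp, and the libraries held 31164746 to 39707582 counted reads.

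C57BL/6J and the C57BL/6N sublines were separated in breeding colonies and have since gathered fixed differences in sequence. C57BL/6J mice are known for a deletion in Nnt, whose product makes mitochondrial NADPH from NADH, and for an intronic change that lowers Gabra2, a subunit of the GABA-A receptor through which inhibitory synapses act. C57BL/6N sublines are known for a mutation in Crb1, a polarity gene of the retina. The ventral hippocampus, as background, is tied to anxiety and fear, and the dorsal hippocampus more to spatial memory.

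These known genes lay against the labels. Nnt (ENSMUSG00000116207, chr13:119335528-119408952, minus strand, GRCm38) measured 18.1 CPM (counts scaled to a common library total) in the lowest, 19.3 in the median and 20.9 in the highest library labelled 6NJ, against 35.6, 36.9 and 37.7 CPM in those labelled 6J. The groups did not overlap, with all 6 libraries labelled 6NJ lower. Its log2 fold change, labelled 6NJ over labelled 6J, was -0.93 ± 0.04 (SE, adjusted p = 5.95e-20, edgeR quasi-likelihood test with Benjamini-Hochberg adjustment, used for every adjusted p below unless another tool is named). A second Nnt model, ENSMUSG00000025453, spans the same gene and differed by at most 24 reads in any of the 12 libraries, so the models are 1 measurement. Gabra2 (chr5:70957597-71095849, minus strand) measured 107, 119 and 134 CPM under the label 6NJ, against 255, 279 and 318 CPM under 6J, with a log2 fold change of -1.24 ± 0.06 (adjusted p = 3.62e-18) and no overlap of groups. Crb1 measured 1.12, 1.5 and 1.83 CPM under 6NJ, against 0.37, 0.71 and 1.0 CPM under 6J, a log2 fold change of 1.08 ± 0.20 (adjusted p = 0.00141), also without overlap. The low Nnt and low Gabra2 that are known of C57BL/6J were thus found in libraries labelled 6NJ. The strain names below are labels, and each direction is that of the libraries labelled 6NJ relative to the libraries labelled 6J.

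The libraries carried the tissue they are labelled with. Dcn, a gene that is higher in the ventral than the dorsal hippocampus, was at 28.3 to 100.5 CPM in the 12 VH libraries, against 5.79 to 14.4 CPM in the 12 DH home cage libraries, and Grp, a peptide gene, at 19.6 to 39.2 CPM, against 2.66 to 7.51 CPM. Lct, which is higher in the dorsal dentate gyrus, showed the opposite order, with 9.0 to 30.8 CPM in VH and 42.7 to 81.5 CPM in DH. The genes of the mitochondrial genome took 6.43% to 9.44% of the reads of the 12 libraries. A pair of libraries labelled 6J, 35A and 35B, stood apart in Lcn2, which encodes the acute phase protein lipocalin 2, at 5.86 and 16.9 CPM, and the other 10 libraries had at most 0.29 CPM. Some results are also given from a fit without all 6 codes that had Lcn2 above 2 CPM in VH, 35A and 35B among them.

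Of 19597 genes tested, 264 differed between the labels at an adjusted p under 0.05, which is 1.35%. Under the label 6NJ 150 were higher (0.765%) and 114 lower (0.582%), and 219 of the 264 were protein coding. Counts of called list members below are to be read beside these shares. Most differences were small: 155 had an absolute log2 fold change under 0.3 and 34 exceeded 1. The 6 libraries labelled 6NJ and the 6 labelled 6J did not overlap for 139 of the 264 genes, and for 227 of all 19597 genes (1.16%). The median log2 fold change of all genes was 0.003. In all, 48 genes (27 higher, 21 lower) were called under each of the 20 other settings tried. When the 12 home cage libraries were fitted alone, without the other VH groups to share the spread, 59 genes were called, 58 of them among the 264. Without library 41B, labelled 6NJ, 170 genes were called, and without 35C, labelled 6J, 171.

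**Figure D1:**
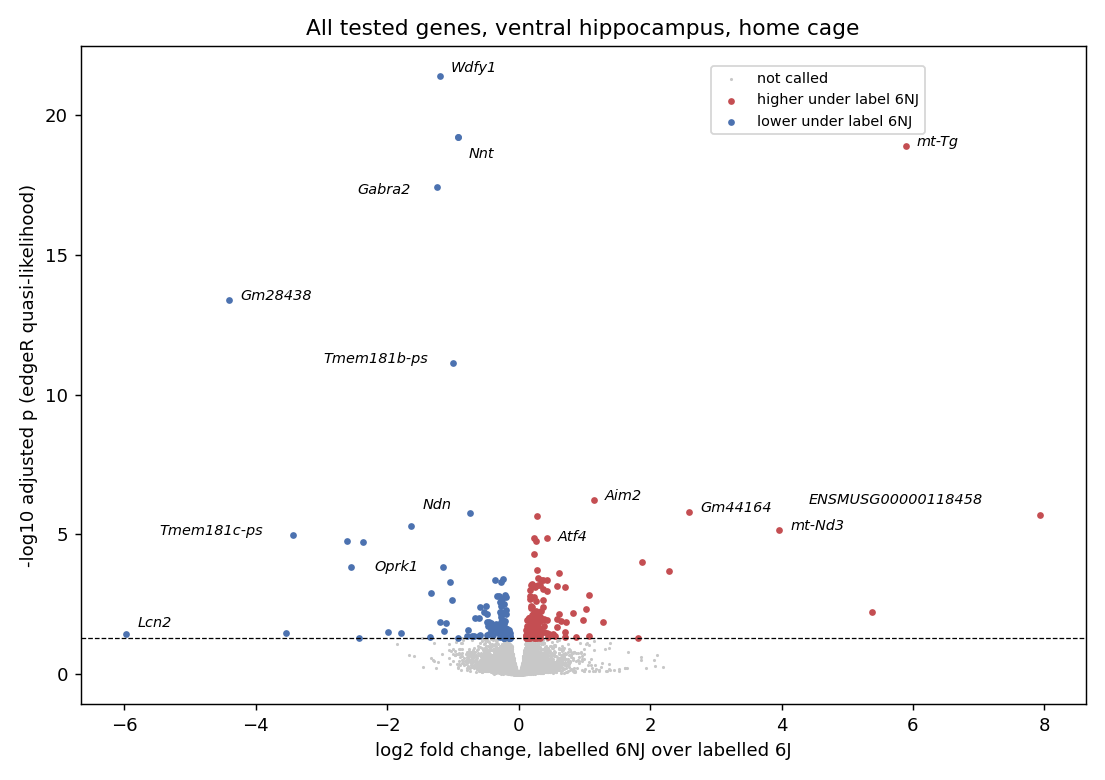
Log2 fold change, labelled 6NJ over labelled 6J (horizontal axis), against −log10 adjusted p (vertical axis) for each of the 19597 genes tested. Colours mark the 150 genes higher and the 114 lower under the label 6NJ, grey the genes not called, and the dashed line an adjusted p of 0.05; Wdfy1, Nnt and mt-Tg lie highest.

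Wdfy1, an endosomal protein that in mice links toll-like receptors to their adaptor, had the smallest adjusted p of all. It measured 19.6, 21.7 and 22.8 CPM under the label 6NJ, against 46.6, 48.9 and 53.4 CPM under 6J. The groups were far apart, with a log2 fold change of -1.19 ± 0.04 (adjusted p = 3.98e-22). Of the 14 tested models on a list of genes known for substrain differences, 4 fell, beside 0.582% of all genes lower. These were Wdfy1, Gabra2 and the pair of Nnt models, itself 1 measurement. Crb1 alone rose, beside 0.765% of all genes higher. The list was drawn up from what is known of the substrains, so its direction is not independent evidence. The others did not pass, among them Cyfip2, an actin regulator with a known C57BL/6N mutation, at a log2 fold change of 0.01 ± 0.05 (adjusted p = 0.944).

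Gabra2 was the single member called on the list of GABA-A receptor genes. Of 22 measured receptor subunits and receptor-associated genes, 1 fell, beside 0.582% of all genes lower, and none rose. The list's median log2 fold change was 0.03. Gabrd, the delta subunit of extrasynaptic receptors in granule cells, had 17.4, 21.1 and 26.1 CPM under 6NJ, against 14.7, 17.1 and 20.2 CPM under 6J, and did not pass (adjusted p = 0.11). None of 33 glutamate receptor genes was called, beside 1.35% of all genes called.

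The transcripts of Gabra2 did not all follow the gene. Estimated counts put the long coding transcript Gabra2-203 at 64.9, 78.9 and 91.1 CPM under 6NJ, against 187, 206 and 235 CPM under 6J, a log2 fold change of -1.42 ± 0.08 (adjusted p = 3.61e-14). Gabra2-204, annotated as a target of nonsense-mediated decay, fell by 1.11 on the log2 scale (adjusted p = 1.91e-08). Gabra2-202, which is annotated as retaining an intron, was at 3.34, 6.62 and 10.4 CPM under 6NJ, against 0.24, 0.74 and 0.96 CPM under 6J, and rose by 3.36 ± 0.36 (adjusted p = 2.4e-07). All 6 libraries labelled 6NJ held more of the intron-retaining form and less of the coding form than any labelled 6J.

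**Figure D2:**
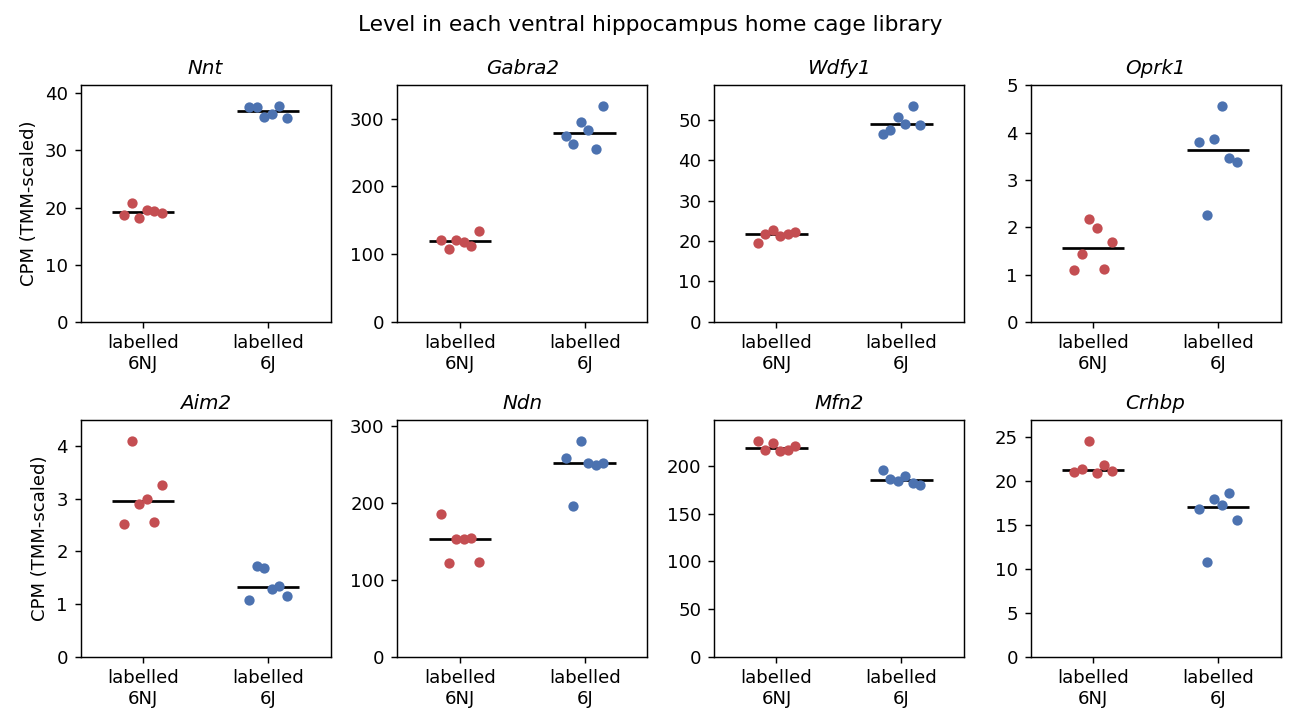
CPM in each of the 12 libraries (vertical axes, from 0) for 8 genes, with libraries labelled 6NJ on the left and 6J on the right of each panel; points are libraries and bars are group medians. The groups do not overlap in any of the 8 panels, with Nnt, Gabra2, Wdfy1, Oprk1 and Ndn lower and Aim2, Mfn2 and Crhbp higher under the label 6NJ.

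The largest rises with a mean of at least 1 CPM were on the mitochondrial genome, and they came with a fall of a nuclear copy. The gene mt-Nd3 encodes a subunit of respiratory complex I, and mt-Tg, the mitochondrial glycine tRNA gene, lies directly before it (chrMT:9391-9458 and chrMT:9459-9806, both on the plus strand). Gm28438 is an unprocessed pseudogene (chr1:24612775-24613119, minus strand). The first 45 bases of mt-Nd3 and of this copy, from the GENCODE vM21 transcripts of GRCm38, are shown because both loci were called, in opposite directions, with the single differing base in capitals.
mt-Nd3: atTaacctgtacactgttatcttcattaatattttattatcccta
Gm28438: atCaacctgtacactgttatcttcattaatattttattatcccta
Over the 345 bases of the pseudogene the sequences differed at 1 base, T3C, with mt-Nd3 first and positions counted from 1 at its start, which is mitochondrial position 9461.

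In the gene counts, mt-Nd3 measured 4.68, 6.70 and 9.81 CPM under the label 6NJ, against 0.29, 0.43 and 0.66 CPM under 6J, a log2 fold change of 3.97 ± 0.49 (adjusted p = 6.69e-06). Gm28438 ran the other way, with 0.16, 0.35 and 0.85 CPM under 6NJ, against 7.91, 9.72 and 10.5 CPM under 6J (log2 fold change -4.40 ± 0.27, adjusted p = 4.03e-14). The sum of the pair was 4.84, 7.28 and 10.5 CPM under 6NJ and 8.20, 10.1 and 11.2 CPM under 6J, and mt-Nd3 took 89.9% to 96.7% of it under 6NJ but 3.41% to 5.97% under 6J. The groups overlap in the sum and are far apart in the share. In the estimated transcript counts, mt-Nd3-201 was at 854, 1178 and 1601 CPM under 6NJ, against 993, 1136 and 1317 CPM under 6J, and did not pass (log2 fold change 0.11 ± 0.12, adjusted p = 0.981). Gm28438-201 was at 0, 14.8 and 78.9 CPM under 6NJ, against 0, 2.73 and 18.0 CPM under 6J, and did not pass either (2.02 ± 1.34, adjusted p = 0.869), so the fall of Gm28438 in the gene counts was not seen there. The gene counts of mt-Nd3 and Gm28438 are therefore uncertain as a measure of RNA level.

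The tRNA genes beside mt-Nd3 moved with it. mt-Tg measured 3.61, 4.52 and 7.39 CPM under 6NJ, against 0.05, 0.08 and 0.11 CPM under 6J, a log2 fold change of 5.89 ± 0.26 (adjusted p = 1.28e-19). mt-Tr, the arginine tRNA gene on its other side, had 104 reads over the 6 libraries labelled 6NJ and 2 reads under 6J (adjusted p = 0.00613). The 2 reads lay in 2 libraries, so the size of this difference is loosely set. mt-Tg ends at mitochondrial position 9458, just before the base at 9461 that differs between mt-Nd3 and Gm28438. Reads of 75 bp over mt-Tg can cross that base, so its gene counts are also uncertain as a measure of RNA level. mt-Tr starts at position 9808, where such reads cannot reach that base. Whether its gene counts follow RNA level was not tested. None of the other 30 measured mitochondrial genes was called, the median of all 33 was -0.03, and 0 of 36 nuclear complex I genes passed (median 0.03).

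**Figure D3:**
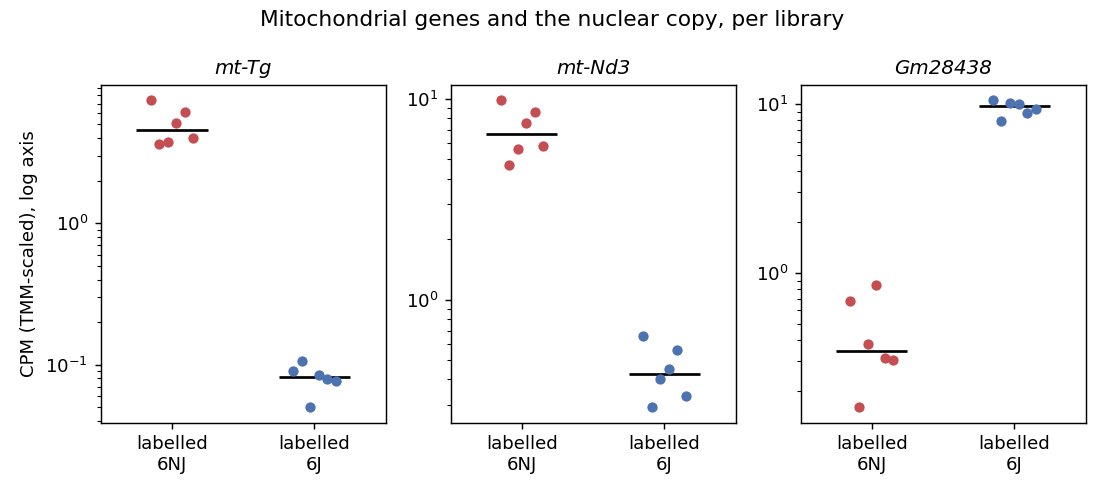
CPM on log axes in each of the 12 libraries for mt-Tg, mt-Nd3 and the pseudogene Gm28438, with libraries labelled 6NJ left of those labelled 6J; bars are group medians. mt-Tg and mt-Nd3 are higher and Gm28438 lower in all 6 libraries labelled 6NJ.

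ATF4 and part of its amino acid stress programme were higher under the label 6NJ. ATF4 is a transcription factor whose translation increases when amino acids are short or mitochondria are impaired, and its targets make amino acids, one-carbon units and tRNA synthetases. Of 34 tested models on a list of ATF4 and its programme, 8 rose and 0 fell, against 0.765% of all genes higher. The list's median was 0.10. Its members were chosen with earlier results of these data known, so this share is not independent evidence. Without the 6 codes that had Lcn2 above 2 CPM in VH the median was 0.16 and 9 rose. In the fit of the 12 home cage libraries alone 5 rose.

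Atf4 itself measured 101, 115 and 134 CPM under the label 6NJ, against 76.9, 87.6 and 95.3 CPM under 6J, a log2 fold change of 0.42 ± 0.06 (adjusted p = 1.29e-05). Atf5, a related factor of the mitochondrial stress response, had 19.7, 22.8 and 28.2 CPM under 6NJ, against 16.0, 17.2 and 19 CPM under 6J (0.43 ± 0.07, adjusted p = 0.000412). Neither gene's groups overlapped. Chac1, which breaks down glutathione, had 5.61, 6.43 and 8.69 CPM under 6NJ, against 3.73, 4.20 and 5.18 CPM under 6J (0.62 ± 0.10, adjusted p = 0.00024). Mthfd2, of mitochondrial folate metabolism, had 6.55, 7.01 and 7.77 CPM under 6NJ, against 4.91, 5.38 and 6.05 CPM under 6J (0.37 ± 0.07, adjusted p = 0.00225). These genes too were separated library by library. Aldh1l2 (0.38) and Shmt2 (0.17) of mitochondrial folate metabolism, Aldh18a1 (0.21) of proline synthesis and Asns (0.19), which makes asparagine, were the other members that rose. Shmt2 kept its call in 5 of the 12 fits that each left out 1 library, Aldh1l2 lost it without 42C, and the other members named here kept it in all 12.

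The rise was not seen across the whole list. Ddit3, which encodes the ATF4 target CHOP, has a pair of models at -0.05 ± 0.08 and -0.05 ± 0.13. Trib3, a pseudokinase and ATF4 target, was low, at 0.40, 0.57 and 0.75 CPM under 6NJ, against 0.20, 0.32 and 0.57 CPM under 6J, and its 0.70 ± 0.26 did not pass (adjusted p = 0.195). Among 20 chaperones of the endoplasmic reticulum 0 were higher and 1 lower, beside 0.765% and 0.582% of all genes. Their median was -0.03. The one that fell was Dnajb9, a co-chaperone, at -0.23 ± 0.05 (adjusted p = 0.0173, and not called without 41A), and Hspa5, the main chaperone, was at -0.13 ± 0.16. None of 18 heat shock genes was called.

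Cytosolic aminoacyl-tRNA synthetases, which load amino acids onto tRNAs, rose in part: 4 of 20 were higher and none lower, beside 0.765% of all genes higher. Their median was 0.11. This list too was chosen with earlier results known, so its share is not independent evidence. Cars, for cysteine, measured 37.1, 38.4 and 39.8 CPM under 6NJ, against 28.3, 31.9 and 34.1 CPM under 6J (0.28 ± 0.04, adjusted p = 0.000189), with no overlap. Yars for tyrosine (0.21, adjusted p = 0.0076), Gars for glycine (0.19, adjusted p = 0.00423) and Aars for alanine (0.17, adjusted p = 0.0481) were the others. Aars was called in 2 of the 12 fits that left out 1 library. In the 12 home cage libraries alone Cars was the single member called. DESeq2 called 7.

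**Figure D4:**
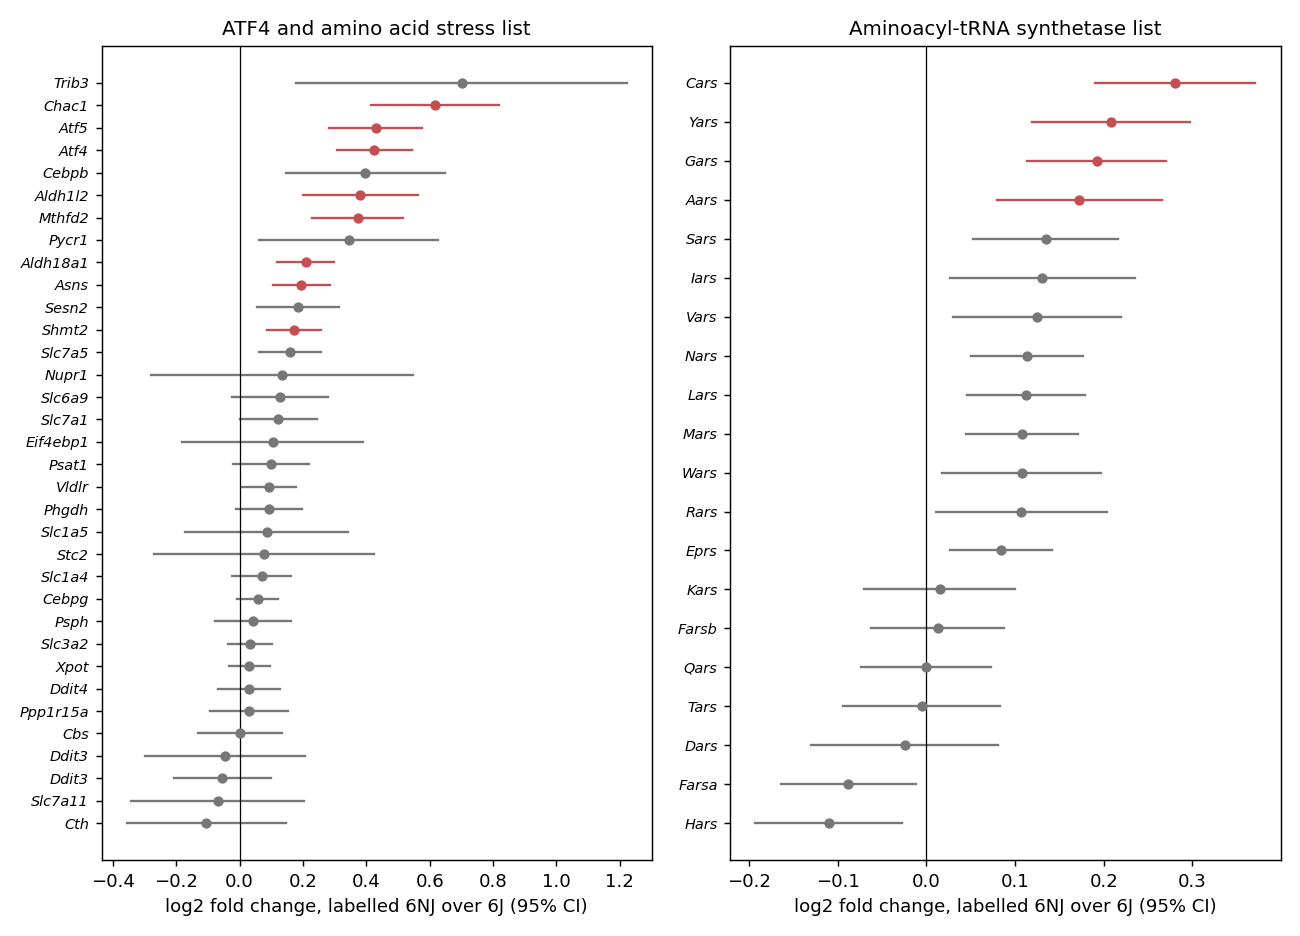
Log2 fold change, labelled 6NJ over labelled 6J, with its 95% interval for each tested model of the ATF4 list (left) and of the aminoacyl-tRNA synthetase list (right), sorted by size. Red marks the 8 and 4 members called higher; 30 of 34 and 15 of 20 estimates lie above 0.

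The promoters of these genes were searched for the C/EBP-ATF response element, written as TGATGNAA on either strand. The windows, from RefSeq (GRCm38.p6), cover 250 bases before to 50 bases after each gene's start. A match lay in 4.51% of the 27025 genes with a window, in 13 of the 40 members of both lists with a window, and in 5 of the 10 called members with one. It lay in 8 of the 30 members that were not called. The lists hold known targets of ATF4, so a high share is a property of the lists. The windows of the 5 called genes with a match are shown to place the element, in capitals, relative to the gene start.
Chac1, chr2:119350992-119351291, plus strand: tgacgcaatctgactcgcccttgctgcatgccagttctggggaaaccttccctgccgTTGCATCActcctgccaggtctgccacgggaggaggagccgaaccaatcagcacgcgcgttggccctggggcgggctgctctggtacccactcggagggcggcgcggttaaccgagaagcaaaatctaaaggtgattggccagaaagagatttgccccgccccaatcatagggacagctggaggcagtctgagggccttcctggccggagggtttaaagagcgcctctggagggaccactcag
Asns, chr6:7693160-7693459, minus strand: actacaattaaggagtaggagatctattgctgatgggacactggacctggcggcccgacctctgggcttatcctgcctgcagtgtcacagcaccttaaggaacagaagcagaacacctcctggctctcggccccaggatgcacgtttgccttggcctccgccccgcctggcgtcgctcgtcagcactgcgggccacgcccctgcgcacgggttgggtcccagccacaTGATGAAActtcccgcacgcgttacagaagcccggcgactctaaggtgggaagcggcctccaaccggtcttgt
Gars, chr6:55037751-55038050, plus strand: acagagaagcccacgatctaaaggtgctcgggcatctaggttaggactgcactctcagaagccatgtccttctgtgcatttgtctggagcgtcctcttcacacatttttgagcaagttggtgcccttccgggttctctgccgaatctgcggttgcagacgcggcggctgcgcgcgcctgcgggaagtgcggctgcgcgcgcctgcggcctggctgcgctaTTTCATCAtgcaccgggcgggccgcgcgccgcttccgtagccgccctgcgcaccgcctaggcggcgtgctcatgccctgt
Yars, chr4:129189653-129189952, plus strand: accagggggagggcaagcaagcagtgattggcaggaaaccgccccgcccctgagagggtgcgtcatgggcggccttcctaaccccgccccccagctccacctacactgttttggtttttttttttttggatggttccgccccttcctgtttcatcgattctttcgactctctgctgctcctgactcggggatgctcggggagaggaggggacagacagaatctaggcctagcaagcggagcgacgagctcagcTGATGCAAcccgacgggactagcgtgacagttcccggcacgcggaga
Aars, chr8:111033592-111033891, plus strand: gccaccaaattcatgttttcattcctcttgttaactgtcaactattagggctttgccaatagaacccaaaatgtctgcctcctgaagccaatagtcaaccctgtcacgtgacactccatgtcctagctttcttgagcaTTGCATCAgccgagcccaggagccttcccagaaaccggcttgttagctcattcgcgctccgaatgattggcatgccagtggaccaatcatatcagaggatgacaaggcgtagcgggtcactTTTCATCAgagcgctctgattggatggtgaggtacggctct
In Asns the match starts 23 bases before the gene start, and in Gars 30 bases before it. Aars holds 2 matches.

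Other mitochondrial genes moved little. Mfn2, which fuses the outer membranes of mitochondria, measured 215, 219 and 226 CPM under 6NJ, against 180.1, 186 and 196 CPM under 6J, a log2 fold change of 0.24 ± 0.03 (adjusted p = 1.29e-05). The groups did not overlap. Its partner Mfn1 went the other way, at 78.8, 82.1 and 89.5 CPM under 6NJ, against 86.3, 91.6 and 97.7 CPM under 6J (-0.15 ± 0.04, adjusted p = 0.0424), and kept its call in 3 of the 12 fits that left out 1 library. The other 23 genes of mitochondrial dynamics were not called. Among 32 models of redox and NADPH metabolism the pair of Nnt models fell, Mthfd2 and Aldh1l2 rose, and the enzymes that can also supply mitochondrial NADPH were not called: Idh2 was at -0.05 (adjusted p = 0.71) and Me3 at 0.10 (adjusted p = 0.16).

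Of 24 genes of ribosome production and nucleolar RNA binding 3 rose and none fell, beside 0.765% of all genes higher. The list's median was 0.05. Khdrbs1 and the other members were chosen with earlier results of these data known, so this share is not independent evidence. Khdrbs1, which encodes the RNA-binding protein SAM68, measured 87.2, 92.3 and 97.6 CPM under 6NJ, against 67.9, 76.0 and 80.5 CPM under 6J (0.29 ± 0.04, adjusted p = 2.1e-06). Ncl, nucleolin, measured 242, 252 and 264 CPM under 6NJ, against 209, 220.2 and 229 CPM under 6J (0.20 ± 0.03, adjusted p = 0.000569). Polr1a, the large subunit of RNA polymerase I, rose by 0.18 (adjusted p = 0.0265), a call that was lost without 36A, 36C, 41B or 42C.

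Genes of neuropeptide systems showed single large differences within lists that otherwise did not pass. Oprk1, the kappa opioid receptor, measured 1.09, 1.56 and 2.17 CPM under 6NJ, against 2.25, 3.63 and 4.55 CPM under 6J (-1.16 ± 0.18, adjusted p = 0.000146). The other 7 genes of the opioid system were not called, and Pdyn, the precursor of its ligand dynorphin, was at 0.33 ± 0.17 (adjusted p = 0.422). Crhbp, which binds and holds back corticotropin-releasing hormone, measured 21.0, 21.3 and 24.5 CPM under 6NJ, against 10.8, 17 and 18.6 CPM under 6J (0.43 ± 0.10, adjusted p = 0.0112), and the hormone gene Crh was at -0.06 ± 0.19. Cort, cortistatin, a peptide of interneurons, had 4.52, 6.94 and 9.03 CPM under 6NJ, against 1.24, 3.76 and 4.69 CPM under 6J (0.98 ± 0.21, adjusted p = 0.0112). The groups overlapped for Cort and not for Oprk1 or Crhbp. None of 22 genes of interneuron identity was called.

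In these unshocked mice, none of 32 rapid immediate early genes, which mark recent neuronal activity, was called by edgeR, and the list's median was -0.01. Arc measured 56.8, 67.1 and 82.9 CPM under 6NJ, against 64.8, 66.6 and 77.4 CPM under 6J, with a 95% interval of the log2 fold change of -0.18 to 0.15. Fos had an interval of -0.21 to 0.53. Bdnf, the neurotrophin gene and the single called member of 22 later activity genes, measured 32.0, 41.9 and 43.3 CPM under 6NJ, against 26.7, 32.8 and 34.0 CPM under 6J (0.32 ± 0.08, adjusted p = 0.0402). Its groups overlapped, and it kept its call in 5 of the 12 fits that left out 1 library.

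Aim2, a sensor of cytosolic DNA, measured 2.52, 2.95 and 4.09 CPM under 6NJ, against 1.08, 1.31 and 1.72 CPM under 6J (1.15 ± 0.13, adjusted p = 6.03e-07). No library of one label reached the other's range. Aim2 overlaps the neuronal gene Cadm3 on the opposite strand, and the strand setting of the counting is not given in the sources used here, so reads of the pair may not be separated; Cadm3 had a log2 fold change of 0.02 ± 0.04. The other 11 genes of DNA sensing and the inflammasome were not called, nor was any of 23 interferon response genes. Casp1, the protease these sensors activate, was at -0.73 ± 0.30 (adjusted p = 0.273).

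Ndn, necdin, an imprinted gene of the Prader-Willi region, measured 122, 153 and 186 CPM under 6NJ, against 196, 253 and 281 CPM under 6J (-0.74 ± 0.09, adjusted p = 1.65e-06). Rian, an imprinted non-coding RNA of the Dlk1-Dio3 region, had 553, 637 and 689 CPM under 6NJ, against 691, 755 and 827 CPM under 6J (-0.27 ± 0.06, adjusted p = 0.0178), and was not called without 35C, 36C or 42B. Neither gene's groups overlapped. The other 30 imprinted genes were not called, and 0.582% of all genes were lower.

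On the acute phase list, the genes that fell, Lcn2 and Lrg1, were highest in libraries 35A and 35B. Lcn2 had at most 0.16 CPM under 6NJ, against 0.03, 0.22 and 16.9 CPM (lowest, median, highest) under 6J, with a log2 fold change of -5.97 ± 1.49 (adjusted p = 0.0357). Without the codes high in Lcn2 it was -1.13 (adjusted p = 0.612). This loss was set in advance, because the codes were left out by their Lcn2 level. That fit left out 6 codes, 2 of them home cage, so it does not test 35A and 35B alone. Lrg1, another acute phase gene, was at -1.80 ± 0.44 (adjusted p = 0.0327) with these codes and -0.25 (adjusted p = 0.673) without them. The other 14 genes of the list were not called, and 0.582% of all genes were lower.

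Markers of the cell types of the hippocampus were read beside these results. In bulk tissue, fewer cells of a type and less RNA per cell cannot be told apart. Of 16 dentate granule cell genes 3 rose and none fell, beside 0.765% of all genes higher. The list's median was 0.38, with 14 of 16 above 0. It was chosen with earlier results of these data known, so its share is not independent evidence. Plk5 measured 12.6, 14.7 and 18.1 CPM under 6NJ, against 7.11, 8.37 and 14.3 CPM under 6J (0.72 ± 0.16, adjusted p = 0.0136). C1ql2, a synaptic protein of mossy fibres, rose by 0.58 (adjusted p = 0.0195) and Stxbp6 by 0.43 (adjusted p = 0.0341), and the groups of all 3 overlapped. Without 35B 8 members were called, without 36A, 36B, 41B or 42C 1 member, and in the 12 libraries alone 0 (edgeR). Prox1, which defines granule cells, was at 65.2, 86.8 and 123 CPM under 6NJ, against 45.6, 58.4 and 115 CPM under 6J, and did not pass (adjusted p = 0.227).

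The summed level of 14 oligodendrocyte markers ran over 4848 to 7987 CPM under 6NJ, against 3479 to 7054 CPM under 6J, with all 14 estimates above 0, a median of 0.32 and 0 called by edgeR. The 15 choroid plexus and ependymal markers summed to 175 to 1818 CPM under 6NJ, against 130.3 to 961 CPM under 6J, with a median of 0.51 and 0 called. CA1 pyramidal cell markers had a median of -0.14 over 12 genes with 0 called, and microglial markers -0.14 over 14 genes with 0 called. The part of these shifts in the gene results was not tested, except that a fit with choroid plexus level as a covariate called 232 genes, 226 of them among the 264. Bok, a BCL2 family gene on the CA2 and CA3 list, rose by 0.62 (adjusted p = 0.00719), the single one of 20 there.

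In 13 places at least 3 called gene models lay within 1 Mb, the mitochondrial genes above among them. Several of these places hold models that overlap, such as the pair of Nnt models beside Nim1k, and so fewer separate genes. On chr7:36721846-36734558 Gm38340, E230020A03Rik and Gm37827, all of unknown coding status, fell by 2.37, 2.60 and 2.55 on the log2 scale. No other tested gene starts between them, but all 3 overlap the tested gene Tshz3 on the same strand. Reads of Tshz3 and of these models may therefore not be separated. E230020A03Rik measured 0.09, 0.31 and 0.78 CPM under 6NJ, against 1.24, 2.26 and 2.70 CPM under 6J. On chr17:6430112-6639790 the pseudogenes Tmem181b-ps and Tmem181c-ps and the dynein light chain gene Dynlt1b fell. Tmem181b-ps measured 27.0, 33.6 and 37.5 CPM under 6NJ, against 63.1, 64.7 and 67.6 CPM under 6J (-0.99 ± 0.08, adjusted p = 7.41e-12), and Tmem181c-ps fell by 3.43 (adjusted p = 1.04e-05). Dynlt1b was low in both groups, at 0.03, 0.09 and 0.16 CPM under 6NJ, against 0.27, 0.33 and 1.49 CPM under 6J (adjusted p = 0.0488), and its call held in 7 of the 20 other settings. These genes have near copies, so the share of reads given to each is uncertain.

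Nudt3, its overlapping model RPS10-NUDT3 and the spliceosome gene Snrpc on chromosome 17 rose by 0.33, 0.24 and 0.37, and Yars, Marcksl1 and Khdrbs1 on chromosome 4 by 0.21, 0.29 and 0.29. On chromosome 9 Taf1d, a subunit of an RNA polymerase I factor, and the small RNA models inside it, Gm25500 and mmu-mir-7650, fell by 0.25, 1.20 and 1.34, and overlapping reads make the 3 uncertain. Nim1k, a kinase gene beside Nnt, rose by 0.24. The other places were Shmt2 with Atp5b and Nabp2, Adar with Chtop and S100a9, Lrrc42 with 0610037L13Rik and Scp2, Zfp146 with Rbm42 and the overlapping Gm21982, and Aars with Ldhd and Bcar1. S100a9 fell by 3.54 on the log2 scale (adjusted p = 0.0331), and its value without the codes high in Lcn2 is not given here.

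On the X chromosome Bex2, Tceal8 and Bex1, members of 1 family of small neuronal proteins, rose by 0.30, 0.19 and 0.43. Bex1 measured 30.7, 37.8 and 39.6 CPM under 6NJ, against 22.6, 27.0 and 30.9 CPM under 6J, overlapping slightly (adjusted p = 0.00104). On chromosome 4 near 42 Mb, a region of duplicated genes, the model ENSMUSG00000118458 had 172 reads under 6NJ and 0 reads under 6J, at least 62.6-fold higher when 3 reads over the 6J group are taken as the floor. Gm21093, in the same region, measured 0.55, 0.93 and 2.49 CPM under 6NJ, against 0.12, 0.23 and 0.31 CPM under 6J (2.28 ± 0.36, adjusted p = 0.000203). Its transcript Gm21093-201 measured 6.48, 12.3 and 16.6 CPM under 6NJ, against 4.77, 7.26 and 8.59 CPM under 6J. That transcript's groups overlapped and it did not pass (0.80 ± 0.24, adjusted p = 0.211). The share of reads given to each copy in this region is uncertain, so both gene differences are uncertain as measures of RNA level.

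Among the other genes with the smallest p, Tspyl4, a nucleosome assembly protein gene, measured 508, 547 and 569 CPM under 6NJ, against 447, 459 and 481 CPM under 6J (0.24 ± 0.04, adjusted p = 4.97e-05). Mtus2, a microtubule-binding protein gene, rose by 0.27 (adjusted p = 1.71e-05) and Hivep3, a zinc finger factor, by 0.29 (adjusted p = 0.000357). The non-coding genes Gm44164 and Gm12576 rose by 2.60 and 1.87, and Gm42864 by 0.83. AC102496.1, a long non-coding RNA gene, fell by 1.64 (adjusted p = 4.81e-06), 0610037L13Rik by 0.24 and 9330121K16Rik by 0.35. Igfbpl1, a growth factor binding protein gene, rose by 0.88 (adjusted p = 0.0456) and kept its call in 2 of the 12 fits that left out 1 library.

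At the level of transcripts 137 of 55754 passed (0.246%), 76 higher and 61 lower. Of these, 65 belonged to genes called in the same direction and 42 to tested genes that were not called. A further 28 had no gene test, some having no annotated gene, and 2 belonged to called genes that moved the other way. Pairs such as Entpd4-206 and Entpd4b-204 carried equal estimates, so the 137 hold fewer separate measurements. In 5 genes called transcripts moved in opposite directions: Gabra2, Il6st, Hp1bp3, Ssbp4 and Rab27b. Il6st encodes the shared receptor subunit of interleukin 6 cytokines. Its transcript Il6st-201 measured 29.4, 33.5 and 36.6 CPM under 6NJ, against 16.5, 19.8 and 25.4 CPM under 6J (0.69 ± 0.11, adjusted p = 0.00048), and Il6st-203 measured 28.3, 31.2 and 33.0 CPM under 6NJ, against 38.0, 41.9 and 46.0 CPM under 6J (-0.43 ± 0.07, adjusted p = 0.000533). The groups were separated for both, and the gene as a whole was at 0.04 (adjusted p = 0.81).

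Ssbp4, a single-stranded DNA binding protein gene, showed the widest split. Its short coding transcript Ssbp4-215 measured 8.74, 9.97 and 11.6 CPM under 6NJ, against 0, 0.18 and 0.43 CPM under 6J (adjusted p = 1.84e-07), and Ssbp4-201 measured 44.0, 49.4 and 67.4 CPM under 6NJ, against 69.4, 76.7 and 82.6 CPM under 6J (-0.56 ± 0.07, adjusted p = 2.52e-05). Hp1bp3-202, of a heterochromatin protein gene, rose by 0.39 (adjusted p = 0.000783) and Hp1bp3-201 fell by 0.70 (adjusted p = 0.0133). Rab27b-201, of a vesicle traffic GTPase, rose by 1.03 (adjusted p = 0.0085) and Rab27b-203 fell by 0.25 (adjusted p = 0.0465). Nnt-206 fell by 1.25 (adjusted p = 3.58e-10). Of the second Nnt model, Nnt-201 was at 0.02 ± 0.39 and Nnt-203 at -0.37 ± 0.34, and neither was called. The transcripts Wdfy1-204 to Wdfy1-207 carried equal estimates and count as 1 measurement.

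The same labels were compared in other VH libraries, those of the cue and of the shock and cue groups, where 1.76% and 0.771% of genes were called. Of the 264 genes, 128 (48.5%) were called with the same sign after the cue and 88 (33.3%) after shock and cue, 72 in both and none with the opposite sign. Without the codes high in Lcn2, which leave out 4 of the 6 cue libraries labelled 6J, 371 genes were called in the home cage, 28 of them (7.55%) also after the cue and 77 (20.8%) after shock and cue. The log2 fold change of Gabra2 was -1.24 in the home cage, -1.17 after the cue and -1.16 after shock and cue, and that of Atf4 was 0.42, 0.37 and 0.40. Oprk1 had -1.16, -1.05 and -0.94, and Cars 0.28, 0.30 and 0.30. The ATF4 list had 6 members higher after the cue and 6 after shock and cue, and the dentate granule list 3 and 0.

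**Figure D5:**
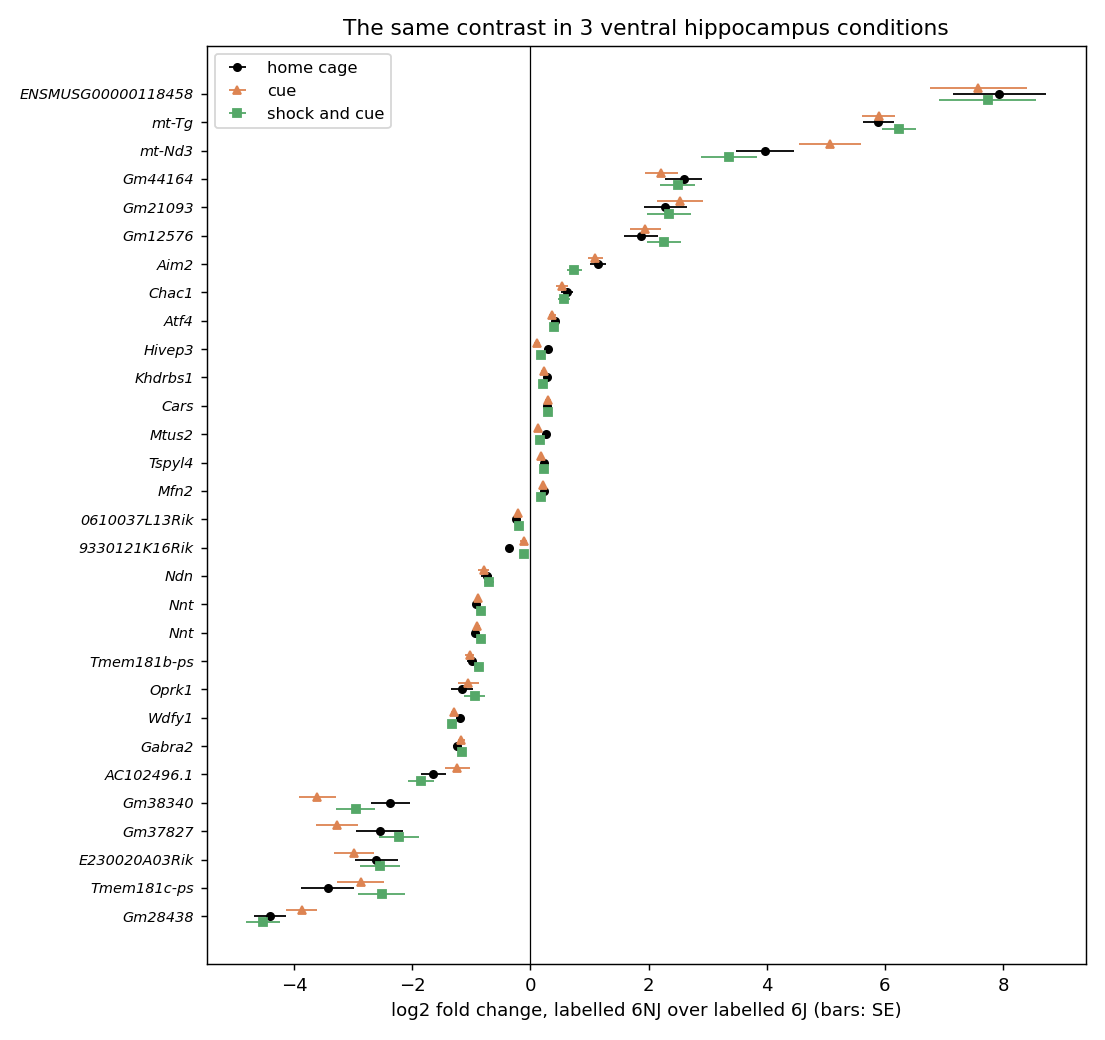
Log2 fold change, labelled 6NJ over labelled 6J, in VH home cage, cue, and shock and cue libraries (horizontal axis, bars are SE) for the 15 higher and 15 lower home cage genes with the smallest p. Each gene keeps its sign in all 3 conditions; the genes were chosen on the home cage values.

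A test of whether the difference itself changed with condition called 0 genes by edgeR for home cage minus cue, with 539 of 19597 (2.75%) at an unadjusted p under 0.05 and 0 by DESeq2. For home cage minus shock and cue edgeR called 0, with 817 (4.17%) at an unadjusted p under 0.05, and DESeq2 called 1, Emp2, a membrane protein gene. Emp2 measured 26.7, 29.8 and 32.5 CPM under 6NJ in the home cage, against 22.6, 24.3 and 25.8 CPM under 6J, a log2 fold change of 0.29 in the home cage and -0.08 after shock and cue. The difference of 0.37 ± 0.07 had an adjusted p of 0.131 by edgeR and 0.0131 by DESeq2. For VH minus DH in the home cage edgeR and DESeq2 called 0 of 20255 genes, and 370 (1.83%) had an unadjusted p under 0.05. Oprk1 was at -1.16 in VH and -0.38 ± 0.26 in DH, and Crhbp at 0.43 in VH and 0.83 ± 0.10 in DH. The differences between regions, -0.78 ± 0.34 for Oprk1 and -0.40 ± 0.14 for Crhbp, did not pass (adjusted p = 1.0 each, rounded).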

How the data were processed

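Poly(A) RNA libraries were made with a stranded kit from Trizol and column extracts and read as single 75 bp reads, per the labels' protocols. The authors deposited whole-number read counts for 55401 genes and, in a second table, estimated counts (expected counts) for 119414 transcripts. Neither is normalized, and HISAT2, featureCounts, kallisto and GRCm38 are named in the submitters' processing notes. The sources used here give neither their versions nor the strand setting.

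Groups came from the labels. The 36 VH libraries were fitted together with edgeR 4.0.16 in R 4.3.3 (TMM, filterByExpr, robust quasi-likelihood F-test, Benjamini-Hochberg threshold 0.05), with 1 mean per group, and VH with DH used all 72. The SE is the log2 fold change divided by the root of F. Estimated counts were rounded. CPM are per library scaled by TMM over the VH libraries, and over all 72 where VH and DH levels are compared. Symbols were found for 55141 genes, and coordinates are GENCODE vM21. On data simulated for this comparison over 19448 genes, the test recovered 52%, 78%, 94% and 100% of changed genes at absolute log2 fold changes of 0.25, 0.5, 1 and 2. The changed genes were drawn from those with a mean CPM of at least 1. Named genes were the 15 higher and 15 lower with the smallest p, list members, the 8 higher and 8 lower of largest fold with a mean CPM of at least 1, clusters of 3 or more called genes within 1 Mb, and transcripts of these genes. The transcripts of Il6st, Hp1bp3, Ssbp4 and Rab27b, and the genes Emp2 and Cadm3, were added after their values were seen. The members and the 38 gene lists were chosen with earlier results of these data known.

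Within groups, 30 pairs of libraries differed by a chi-square per degree of freedom of at least 5, so none was a duplicate. Alternatives were RLE size factors, other filters, DESeq2 1.42.0, limma-voom 3.58.1, a choroid plexus covariate, the 12 libraries alone, and leaving out each library or the codes with Lcn2 above 2 CPM.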

Additional observations from a re-analysis of the deposited data

Results flagged for a closer look

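Of 114 groups of 6 libraries (57 named genes under each label), 9 had a library far from the other 5, and chance alone flags about 1 in 20. Under the label 6NJ, library 41B held 2.49 CPM of Gm21093, with the next at 1.0 CPM. Library 41A held 97.4 CPM of Bok, with the next at 64.0 CPM, and it was the lowest for Gm38340, at 0.034 CPM, and for Dnajb9, at 23.1 CPM. Library 41C held 24.5 CPM of Crhbp, with the next at 21.8 CPM. Under the label 6J, library 35B held 16.9 CPM of Lcn2, with the next at 5.86 CPM, and 14.3 CPM of Plk5, with the next at 9.19 CPM. The same library was the lowest for Ndn, at 196 CPM, with the next at 249 CPM. Library 36B held 0.67 CPM of Gm44164, with the next at 0.29 CPM. The cause of these values was not tested.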

How the results depend on the processing

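The 264 genes became 171 with no low-count filter and 59 in the 12 home cage libraries alone, and 170 to 387 when 1 library was left out. The 137 transcripts became 491 with DESeq2 and 51 in the 12 libraries alone, and 100 to 170 with 1 library left out. The 8 members of the ATF4 list became 5 in the 12 libraries alone and 7 to 9 with 1 library left out. The 4 tRNA synthetases became 7 with DESeq2, 1 in the 12 libraries alone and 3 to 4 with 1 library left out. The 3 dentate granule genes became 1 with no filter, 0 in the 12 libraries alone, 5 without the codes high in Lcn2, and 1 to 8 with 1 library left out. The share of home cage calls also called after the cue, 48.5%, was 7.55% without the codes high in Lcn2, which leave out 4 of the 6 cue libraries labelled 6J. That alternative, like the other settings for this share, was chosen after seeing the data. DESeq2 called 1 gene for home cage minus shock and cue where edgeR called 0. Without a filter more genes are tested, and the 12 libraries alone give fewer degrees of freedom. The causes of these and the other shifts were not tested.

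The DH and VH libraries share codes, but the labels do not say that a code is 1 mouse. The deviations of same-coded libraries correlated at -0.18 to 0.36 over the 12 home cage codes, and 20 of 36 codes in all exceeded 0.1. With the code as a replicate block, the pairing changed no count: 0 genes were called for VH minus DH, as without it.

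Of 1132 pairs of a named gene and another setting, 1013 kept the call, 119 kept only the direction and 0 reversed. In the 12 libraries alone 19 named genes lost the call, among them Asns, Yars, Gars, Aldh18a1, Crhbp, Cort, Crb1, Plk5 and Bok, and Asns lost it without the codes high in Lcn2 too (adjusted p = 0.0736). Depth and the small number of libraries limit what was seen. At simulated absolute log2 fold changes of 0.25, 52% of changed genes were recovered, all with a mean of at least 1 CPM. Lists with 0 calls may therefore hold changes of that size, and changes in genes under 1 CPM were not simulated. Genes under 1 CPM, 24 of the 264, rest on few reads.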

Other observations

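Some called genes outside the lists are given here as single genes, picked after their values were seen. Snrpc, a protein of the U1 particle, measured 12.8, 14.3 and 17.1 CPM under 6NJ, against 10.4, 11.2 and 11.6 CPM under 6J (lowest, median and highest library), a log2 fold change of 0.37 (adjusted p = 0.000412, edgeR). Snrpd1 rose by 0.34 and Snrpd3 by 0.24. The editing enzyme gene Adar rose by 0.24, with 155, 164 and 169 CPM under 6NJ, against 125, 139 and 146 CPM under 6J. Cd59a, an inhibitor of complement, was at 3.07, 3.76 and 4.62 CPM under 6NJ, against 6.76, 7.51 and 9.43 CPM under 6J, a log2 fold change of -1.01 (adjusted p = 0.00225). Trpa1, an irritant-gated channel, was at 0.20, 0.41 and 0.59 CPM under 6NJ, against 0.69, 0.87 and 1.81 CPM under 6J (adjusted p = 0.00119). Groups did not overlap for any of these 6 genes.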
